A study of Mus musculus with 6 samples.

Results

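The ephrin, Eph receptor, semaphorin, plexin, Slit and Robo genes are families of extracellular guidance cues and their receptors. They were taken from the deposited table as every row annotated as protein-coding whose symbol begins with Epha, Ephb, Efna, Efnb, Sema, Plxn, Slit plus a digit, or Robo, leaving out Slitrk genes. This gave 58 of 54532 genes: 8 ephrins, 14 Eph receptors, 20 semaphorins, 9 plexins, 3 Slits and 4 Robos. They were followed in pancreatic buds of mouse embryos taken at E12.5 and kept for 2 days as explants, all in M199 medium with 10% fetal bovine serum and 0.1% DMSO. The Control group (3 libraries) had the vehicle alone, and the TBZ group (3 libraries) also had tetrabenazine (TBZ) at 0.1 µM from start to end. TBZ blocks VMAT2, the transporter that fills vesicles with monoamines such as dopamine, and the study asked how this pathway acts on the developing pancreas. The labels give no strain, litter or number of buds per library, and a bud in culture has lost its blood flow and outside nerve supply.

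Guidance molecules were first known from growing axons, and the same families position cells and shape tubes in many organs. Ephrins are bound to the cell surface, A ephrins by a lipid anchor and B ephrins by a membrane-spanning segment, and they signal on contact to Eph receptor tyrosine kinases on neighbouring cells. Semaphorins are secreted (class 3) or membrane-bound (classes 4 to 7) and act on plexins, the class 3 members mostly with a neuropilin as co-receptor, while secreted Slits act on Robo receptors. In the mouse pancreas EphB receptors are known for shaping the branching epithelium, class 3 semaphorins and neuropilin for the outward movement of endocrine cells, and Slit and Robo for progenitor identity and islet architecture.

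The libraries held 35825033 to 50620936 counted reads each, with the deepest library and the shallowest in the Control and TBZ groups respectively. Pearson correlations of log2 CPM (counts scaled to library size) between libraries lay between 0.993 and 0.997. Control replicate 3 stood apart in markers of stomach and oesophagus, whose summed FPKM was 123 there, 89.3 and 76.5 in Control replicates 1 and 2, and 55.6 to 88.6 in TBZ. In Control replicate 3 Sox2, Pitx1, Sox21, Krt5, Krt15, Trp63 and Foxa1 were at their highest, while Barx1, Cldn18 and Tff2 were not. Barx1 was the largest part of the sum, at 77.7, 66.8 and 76.1 FPKM in Control replicates 1 to 3. Epithelial markers were expressed, with Epcam at 154 to 187 FPKM, and Pdx1, which marks pancreatic epithelium, was at 18.4 to 29.9 FPKM. So were mesenchymal (Vim, 219 to 256 FPKM), endothelial (Cdh5, 32.6 to 36.6 FPKM) and neural crest genes (Sox10, 1.71 to 3.71 FPKM). The buds are mixed tissue, in which fewer cells of a type and less RNA per cell cannot be told apart. FPKM is the fragment count scaled to gene length and library size, so only FPKM is used here to compare levels between genes.

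Most of the guidance genes were expressed, and their levels differed far more from gene to gene than between treated and untreated buds. Mean FPKM over the 6 libraries ran from 0.0200 to 67.4 with a median of 6.36. A total of 51 of the 58 genes had a mean of at least 1 FPKM, 48 reached 1 FPKM in every library, and 16 had a mean of at least 10. Together the 58 genes made up 0.400 ± 0.0137% of the counts of a Control library and 0.406 ± 0.00545% of those of a TBZ library (SD, n = 3 each).

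**Figure D1:**
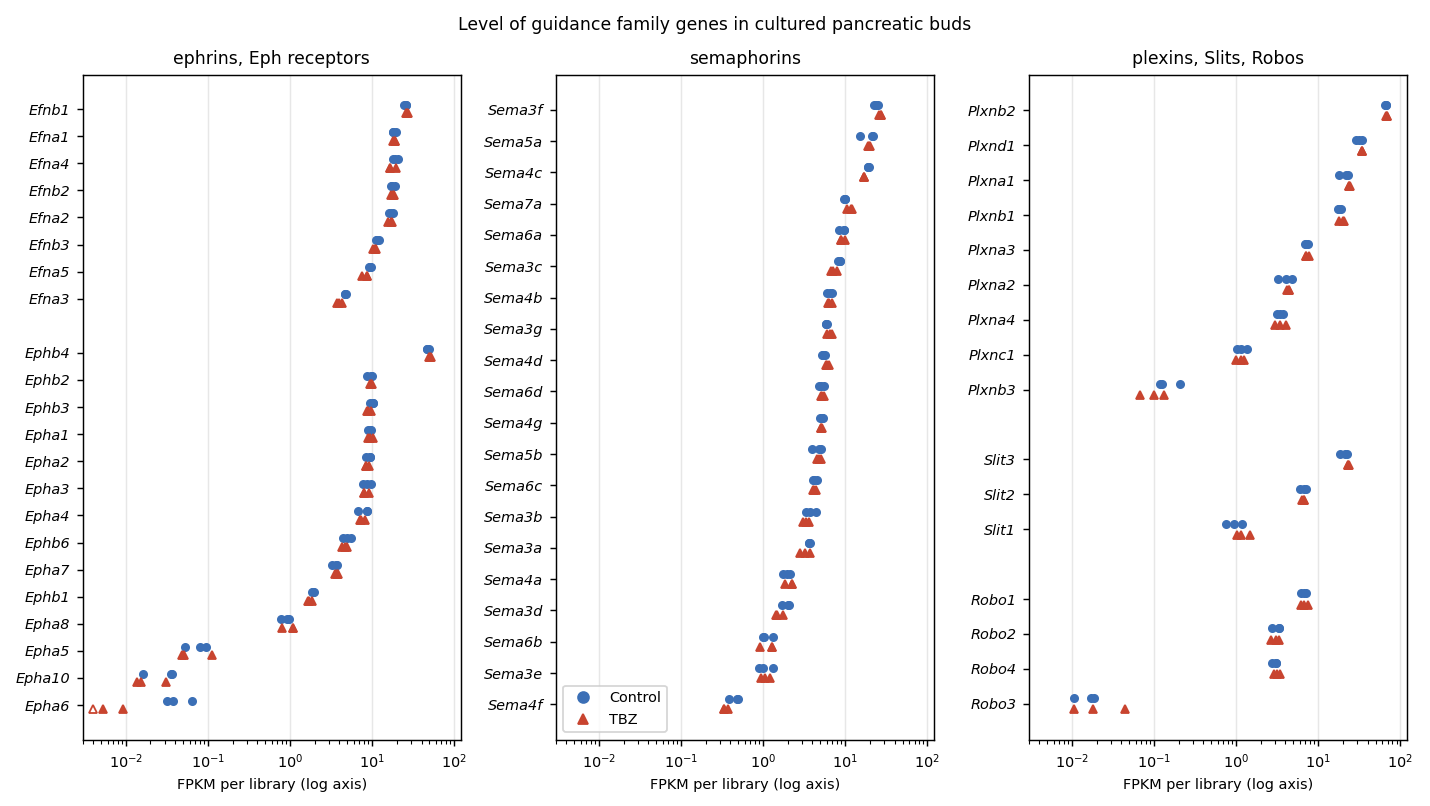
FPKM of each of the 58 genes in every library, on a log axis, with circles for the 3 Control and triangles for the 3 TBZ libraries; the open triangle is a value of 0 drawn at the left edge. Plxnb2 and Ephb4 were the highest genes, and Robo3, Epha6, Epha10, Epha5 and Plxnb3 lay at or below 0.206 FPKM in every library.

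Start regions are shown for 3 genes: Plxnb2, the gene with the highest level, and Robo4 and Robo3, neighbours on chromosome 9 whose levels are far apart. Robo4 and Robo3 lie on opposite strands and adjoin at their 3′ ends, not at their starts. The letters are RefSeq's (GRCm38.p6), read 5′ to 3′ on the strand of the gene, with each CG pair in capitals. Each is the stretch of 150 bases at the far end of a window of 250 bases before the start annotated by RefSeq.
Plxnb2, chr15:89180889-89181038, minus strand: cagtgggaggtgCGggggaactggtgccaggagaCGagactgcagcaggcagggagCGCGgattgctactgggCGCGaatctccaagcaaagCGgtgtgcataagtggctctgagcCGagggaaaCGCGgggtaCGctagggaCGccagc
Robo4, chr9:37401722-37401871, plus strand: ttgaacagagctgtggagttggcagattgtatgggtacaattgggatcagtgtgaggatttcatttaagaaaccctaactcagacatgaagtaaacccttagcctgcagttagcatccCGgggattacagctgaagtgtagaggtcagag
Robo3, chr9:37433276-37433425, minus strand: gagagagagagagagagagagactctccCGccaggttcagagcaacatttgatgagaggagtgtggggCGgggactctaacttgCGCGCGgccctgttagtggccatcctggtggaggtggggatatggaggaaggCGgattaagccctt

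The stretch before Plxnb2 held 12 CG pairs, that before Robo3 held 6 and that before Robo4 held 1. Windows were found for 51 of the 58 genes, taking the start with most CG pairs where a gene had several. Some RefSeq starts lie inside the gene's deposited span rather than at its edge, as for Sema3a, Robo1 and Robo4. A window counted as CG-rich at a GC share of at least 50% and an observed over expected CG ratio of at least 0.6. This was met by 28 of the 51 (54.9%, against 33.3% of 27018 genes with a window). Those 27018 genes are of any type and level, so they are not a like set, and no share for expressed protein-coding genes was computed. At or above 1 FPKM 24 of 44 genes were CG-rich, and below it 4 of 7, too few to compare the shares. The low genes Epha5 and Epha10 had CG-rich windows (20 and 17 CG pairs), while Ephb4, the second highest gene, had 12 CG pairs and fell short of the ratio.

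No guidance gene passed the edgeR quasi-likelihood test for a change with TBZ. Of the 55 genes with enough counts to test, 0 had an adjusted p under 0.05, where 34 of 18226 tested genes did (0.187%; 0.154% higher and 0.0329% lower in TBZ), and the smallest edgeR adjusted p was 0.221. DESeq2 called 0 of them (1.43% of all its genes called), and none of the 58, or 0, pass 0.05 in the authors' deposited table (0.767% of all). The deposited log2 fold changes of these genes are close to those of DESeq2, and each calls 222 genes in all. The shares differ by the number of genes with an adjusted p, 15527 for DESeq2 and 28930 in the deposited table. They are thus not separate checks. At an unadjusted edgeR p under 0.05 there were 13 of the 55 (23.6%), 6 of them higher and 7 lower in TBZ, against 9.61% of all tested genes. Among tested protein-coding genes with a mean of at least 1 FPKM that share was 10.5%. TBZ and Control libraries did not overlap for 13 genes as well (23.6%, against 15.5% of all tested genes), 8 of them higher and 5 lower in TBZ (8.47% and 7.03% of all), and 11 genes were in both sets. The signs were mixed, with 32 log2 fold changes above 0 (50.1% of all tested genes were) and 23 below, and the median was 0.01, beside 0.00 for all tested genes. Without Control replicate 3 there were 26 above 0 and 29 below, and the median was -0.03.

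The sizes involved were small. For 51 of the 55 tested genes the 95% interval of the change lay within 1.5-fold either way (71.0% of all tested genes). Among genes with a mean of at least 1 FPKM this held for 50 of 51 guidance genes and for 94.7% of tested protein-coding genes, a like share. The median size of the log2 fold change, whatever its sign, was 0.09 for those 51 genes and 0.06 for those protein-coding genes. The 4 whose interval reached past 1.5-fold were Epha5, Sema4f, Plxnb3 and Slit1, all with means of at most 1.09 FPKM. For the other 51 genes a change of more than 1.5-fold was thus outside the interval that the spread between these libraries gives.

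**Figure D2:**
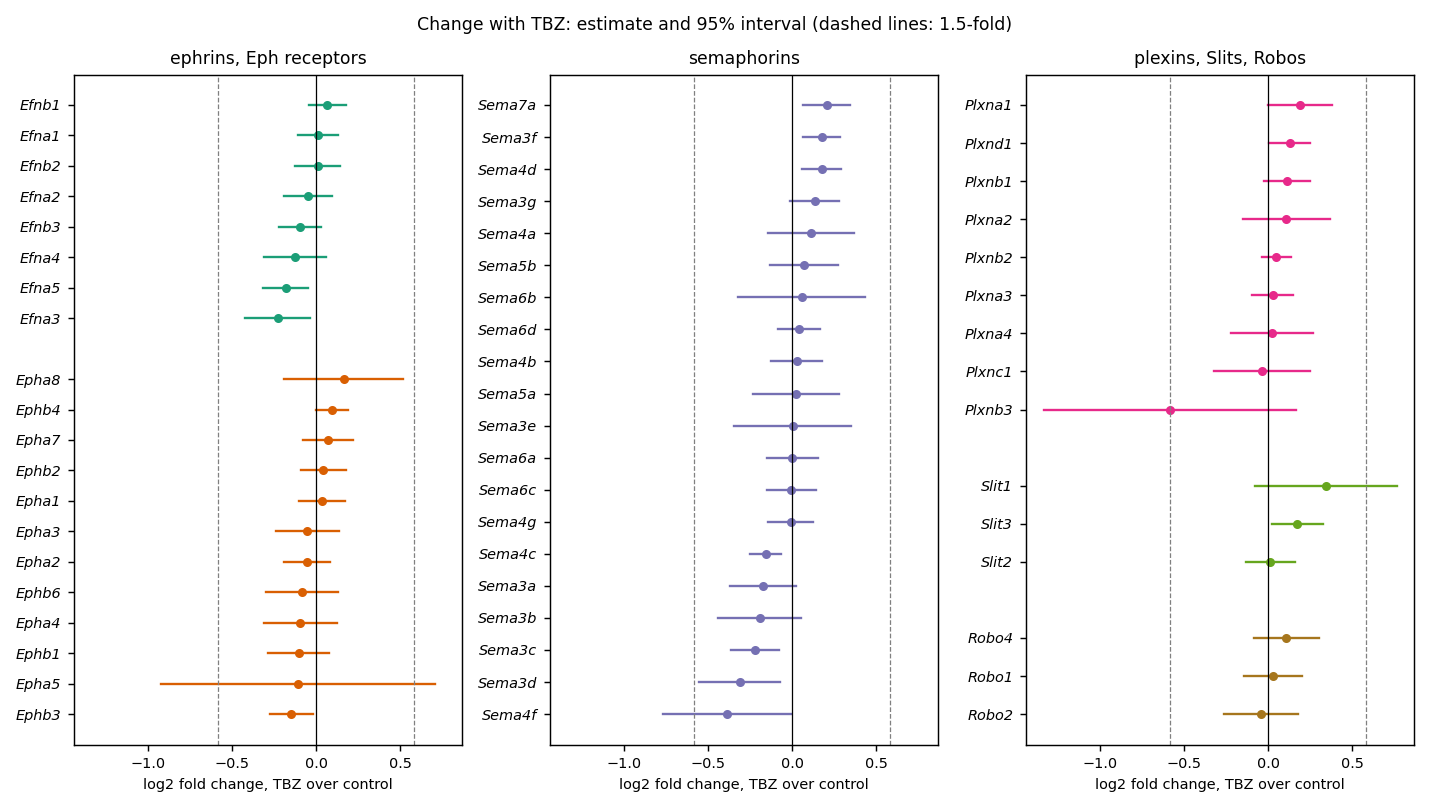
Log2 fold change of TBZ over Control (points) with its 95% interval (lines) from the edgeR fit for the 55 tested genes, by family; dashed lines mark 1.5-fold. Estimates ran from -0.59 for Plxnb3 to 0.35 for Slit1, both of which moved by over 1.5 times with 1 library left out, and the intervals of Epha5, Sema4f, Plxnb3 and Slit1 crossed a dashed line.

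**Figure D3:**
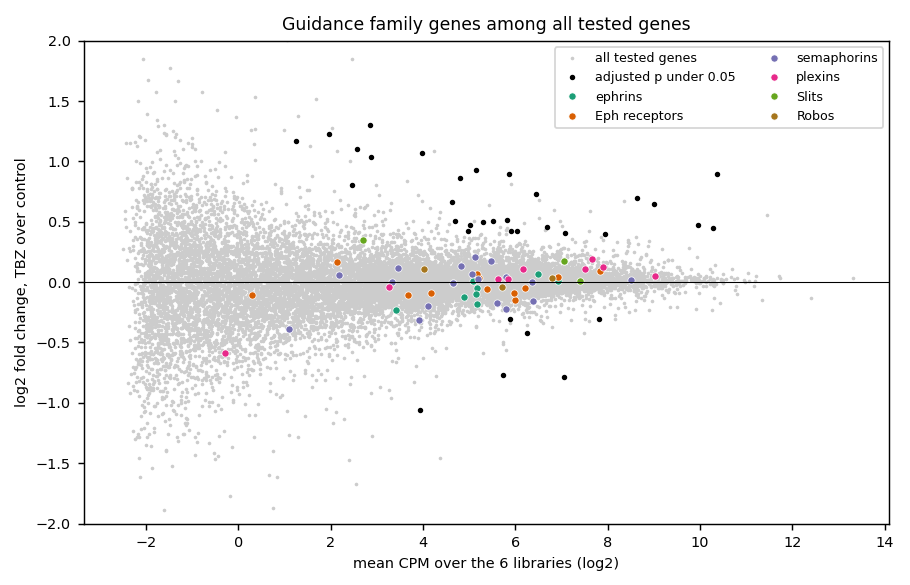
Log2 fold change against mean CPM (log2) for all tested genes (grey), those with an adjusted p under 0.05 (black) and the guidance genes (coloured by family); 16 genes lie outside the plotted range. The guidance genes lie within the grey cloud at their level, and none is black.

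Ephrins, the ligands, were all expressed, with means from 4.36 to 26.0 FPKM. Efnb1, a B ephrin needed at tissue boundaries, was the highest at 24.2, 26.0 and 26.0 FPKM in Control replicates 1 to 3 and 26.4, 27.6 and 25.6 FPKM in TBZ replicates 1 to 3. The groups overlapped, and its log2 fold change was 0.07 ± 0.05 (SE, edgeR adjusted p = 0.709). Efna1, an A ephrin found in endothelium among other tissues, lay at 18.0, 17.8 and 19.3 FPKM in Control and at 18.8, 17.8 and 18.9 FPKM in TBZ, which cannot be told apart (log2 0.01 ± 0.05 SE, edgeR adjusted p = 0.970). Efna4, Efnb2, which marks arterial endothelium, and Efna2 had means of 18.4, 17.8 and 16.9 FPKM, and their groups overlapped.

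The ephrins with the smallest p-values were A ephrins with lower values in TBZ. Efna5, a ligand known in beta cells for contact signalling that affects insulin release, stood at 9.47, 9.61 and 9.30 FPKM in Control and 8.62, 8.73 and 7.63 FPKM in TBZ. Every TBZ library was below every Control library, and the log2 fold change was -0.18 ± 0.06 (SE, edgeR unadjusted p = 0.0126, adjusted p = 0.355). Efna3 stood at 4.63, 4.74 and 4.75 FPKM in Control and at 3.93, 4.34 and 3.77 FPKM in TBZ. Its groups were also apart, with a log2 fold change of -0.23 ± 0.09 (SE, edgeR unadjusted p = 0.0253, adjusted p = 0.436). Efnb3 lay between 11.1 and 12.1 FPKM in Control and between 10.2 and 11.2 FPKM in TBZ, which overlapped (log2 -0.10 ± 0.06 SE, edgeR adjusted p = 0.633).

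Efna1, Efna3 and Efna4 lie side by side on chromosome 3 (mm10), in spans of 89271733 to 89281142, 89313899 to 89322965 and 89333390 to 89338028, all on the minus strand. Their log2 fold changes were 0.01, -0.23 and -0.13, and their mean levels 18.4, 4.36 and 18.4 FPKM. Antisense exons cover 14.1% of the exon bases of Efna3 and 10.5% of those of Efna4, and the antisense genes had 59 and 55 reads over all 6 libraries. The part of these reads in the values was not tested. Of the 5 A ephrins 4 were below 0, and of the 3 B ephrins 2 were above 0; the difference between these subclasses was not tested.

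Among the Eph receptors Ephb4, the partner of ephrin-B2 and a marker of veins, was far above the others and held 43.0% of their summed mean FPKM. It stood at 48.9, 46.8 and 46.9 FPKM in Control and 49.1, 52.3 and 50.8 FPKM in TBZ. The TBZ libraries were all above the Controls, TBZ replicate 1 by a narrow margin, and the log2 fold change was 0.10 ± 0.04 (SE, edgeR unadjusted p = 0.0488, adjusted p = 0.515). Beside it 10 of 12 endothelial markers lay above 0 (median log2 fold change 0.06), with 0 called by edgeR, 0 by DESeq2 and 0 at an unadjusted p under 0.05 (smallest edgeR adjusted p = 0.624). The summed FPKM of these markers was 129 to 132 in Control and 133 to 142 in TBZ. The lowest of them was Sox17, at 0.619 to 0.960 FPKM over all libraries. The part of these markers in the result was not tested.

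Ephb2 and Ephb3, the receptors known from pancreatic branching, had the same mean of 9.56 FPKM. Ephb2 had 10.1, 9.60 and 8.57 FPKM in Control and 9.47, 9.76 and 9.84 FPKM in TBZ, with overlapping groups (log2 0.04 ± 0.06 SE, edgeR adjusted p = 0.859). Ephb3 had 9.46, 10.4 and 10.3 FPKM in Control and 8.92, 9.60 and 8.70 FPKM in TBZ. TBZ replicate 2 lay within the Control range, and the log2 fold change was -0.15 ± 0.06 (SE, edgeR unadjusted p = 0.0264, adjusted p = 0.442). Ephb1 was lower, at 1.83, 1.94 and 1.89 FPKM in Control and 1.67, 1.88 and 1.72 FPKM in TBZ, and its groups overlapped (log2 -0.10 ± 0.08 SE, edgeR adjusted p = 0.720). Ephb6, a receptor without kinase activity, had a mean of 4.79 FPKM.

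Levels of the EphA receptors were spread widely. Epha1, Epha2, Epha3, Epha4 and Epha7 had means of 9.43, 8.87, 8.51, 7.81 and 3.63 FPKM and log2 fold changes between -0.09 and 0.07, and their groups overlapped. For Epha1, 6.01% of the exon bases overlap the far more abundant antisense gene Zyx. The others were low: Epha8 had a mean of 0.938 FPKM and Epha5, the receptor paired with ephrin-A5 in adult beta cells, one of 0.0734 FPKM. Epha10, which also lacks an active kinase, and Epha6 were too low to test, with means of 0.0247 and 0.0246 FPKM. The counts of Epha6 were 16, 10 and 7 reads in Control and 0, 2 and 1 reads in TBZ. The TBZ counts were below the Control counts in every pairing, but rest on so few reads that no level is drawn from them.

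Semaphorins, the largest family, had 7 of 20 genes at an unadjusted edgeR p under 0.05 (3 higher and 4 lower; 9.61% of all tested genes). Groups were apart for 6 of 20 (30.0%), against 15.5% of all tested genes and 33.3% of the plexins. Sema3f, a secreted semaphorin that acts through neuropilin-2, was the highest of them and stood at 24.1, 22.7 and 25.0 FPKM in Control and 27.5, 26.1 and 27.5 FPKM in TBZ. The groups were apart, with means of 23.9 ± 1.16 and 27.0 ± 0.805 FPKM (SD, n = 3 each) and a log2 fold change of 0.18 ± 0.05 (SE, edgeR unadjusted p = 0.00519, adjusted p = 0.257). In the authors' deposited table it has an adjusted p of 0.135, the smallest among the guidance genes there. Sema4c, a membrane-bound ligand of plexin-B2, had 18.8, 18.8 and 19.6 FPKM in Control and 17.1, 16.9 and 17.2 FPKM in TBZ. Its libraries were tight within each group and apart between them, with a log2 fold change of -0.16 ± 0.04 (SE), the smallest edgeR p of all 55 (unadjusted p = 0.00330, adjusted p = 0.221). Antisense exons of D430040D24Rik cover 7.27% of its exon bases, and that gene had 1263 reads over the 6 libraries.

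Sema3c, a secreted semaphorin known from the cardiac outflow tract, had 8.13, 8.55 and 8.65 FPKM in Control and 7.03, 7.94 and 6.72 FPKM in TBZ. All TBZ libraries were below the Controls, TBZ replicate 2 being the nearest, and the log2 fold change was -0.22 ± 0.06 (SE, edgeR unadjusted p = 0.00663, adjusted p = 0.277). It was the 1 gene called under any alternative, with no filter on low counts in edgeR (adjusted p = 0.0331), a setting that called 445 genes in all. Sema5a, a large membrane-bound semaphorin, had 21.6, 21.5 and 15.2 FPKM in Control and 19.8, 20.0 and 19.2 FPKM in TBZ. Control replicate 3 was the lowest library and the other Controls the highest. The log2 fold change was 0.02 ± 0.11 (SE, edgeR adjusted p = 0.973), and it was -0.13 without Control replicate 3 (edgeR adjusted p = 0.312).

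A further 4 semaphorins at an unadjusted p under 0.05 are named after their values were seen. Sema7a, a lipid-anchored semaphorin that binds plexin-C1 and integrins, had 9.68, 10.1 and 9.94 FPKM in Control and 12.0, 10.4 and 11.8 FPKM in TBZ. TBZ replicates 1 and 3 were well above the Controls and TBZ replicate 2 was just above them (log2 0.21 ± 0.06 SE, edgeR adjusted p = 0.306). Sema4d, the ligand of plexin-B1, had 5.64, 5.33 and 5.29 FPKM in Control and 5.92, 5.99 and 6.45 FPKM in TBZ, with groups apart (log2 0.18 ± 0.05 SE, edgeR adjusted p = 0.302). Sema3d had 1.71, 1.99 and 2.09 FPKM in Control and 1.48, 1.75 and 1.42 FPKM in TBZ. Its groups overlapped through TBZ replicate 2, and the log2 fold change was -0.31 ± 0.11 (SE, edgeR adjusted p = 0.389). Sema4f was low, at 0.479, 0.390 and 0.501 FPKM in Control and 0.332, 0.375 and 0.337 FPKM in TBZ, with groups apart (log2 -0.39 ± 0.17 SE, edgeR adjusted p = 0.509).

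**Figure D4:**
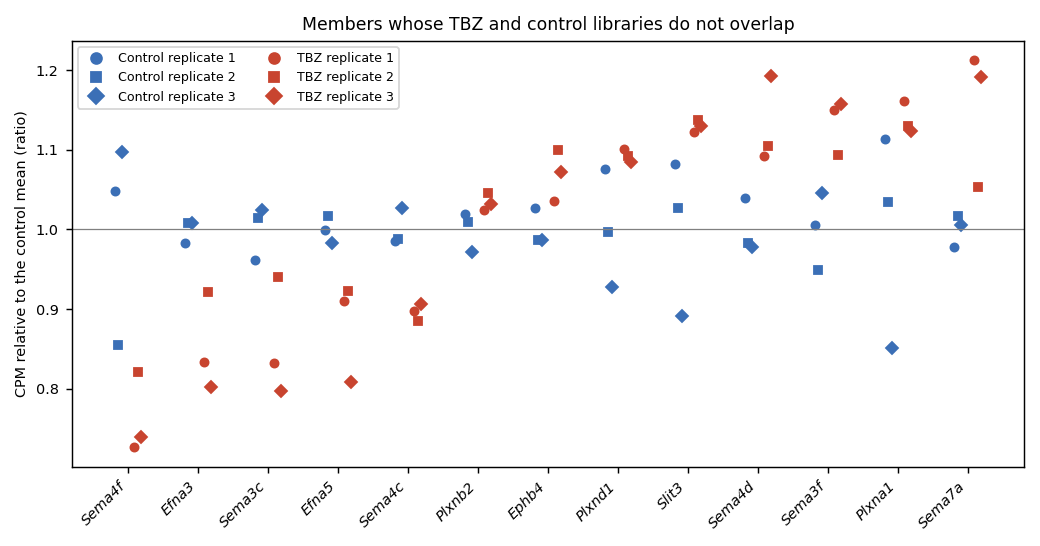
CPM of each library divided by the control mean for the 13 tested genes whose TBZ and Control libraries do not overlap. Genes are ordered by log2 fold change, with 1 marker shape per replicate number. The 5 genes on the left lie below 1 in every TBZ library and the 8 on the right above 1; Control replicate 3 is the lowest library for Plxnb2, Plxnd1, Slit3, Sema4d and Plxna1.

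Sema3a and Sema3d are the class 3 ligands that pancreatic mesenchyme is known to present to neuropilin-2 on endocrine cells. Sema3a had 3.65, 3.78 and 3.65 FPKM in Control and 3.29, 3.72 and 2.80 FPKM in TBZ, where TBZ replicate 2 overlapped the Controls (log2 -0.17 ± 0.09 SE, edgeR adjusted p = 0.576). Nrp2, which encodes neuropilin-2, had 6.80, 6.60 and 7.81 FPKM in Control and 6.56, 7.49 and 5.62 FPKM in TBZ (log2 -0.11 ± 0.10 SE). Sema3a and Sema3d lie next to each other and to Sema3e on chromosome 5, with gaps of 536.5 and 422.7 kb, and Sema3e was level between groups (log2 0.00 ± 0.15 SE, mean 1.08 FPKM). Sema3b and Sema3f are neighbours on chromosome 9, 72.3 kb apart, and had opposite signs: Sema3b, at a mean of 3.60 FPKM, was at log2 -0.19 ± 0.11 (SE, edgeR adjusted p = 0.623).

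The other semaphorins showed overlapping groups. Sema6a, a membrane-bound ligand of A plexins, was at log2 0.00 ± 0.07 (SE) with a mean of 9.29 FPKM. Sema4b, Sema3g (a semaphorin of arterial endothelium), Sema6d, Sema4g, Sema5b and Sema6c had means between 4.23 and 6.50 FPKM and log2 fold changes from -0.01 to 0.13, the latter for Sema3g. Sema4a, Sema6b and Sema3e were between 1.08 and 2.04 FPKM.

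Plexins, the semaphorin receptors, had the highest summed level of the 6 families, 153 ± 7.73 FPKM in Control and 163 ± 1.68 FPKM in TBZ (SD, n = 3 each). Control replicate 3 was the lowest library at 145 FPKM, and Control replicate 1 at 160 FPKM was close to the TBZ libraries at 161 to 164 FPKM. Of the 9 plexins 7 had a log2 fold change above 0 (50.1% of all tested genes did), with a median of 0.05, and none passed the edgeR test. Of these 7, Plxna2 and Plxna4 fell below 0 without Control replicate 3 (log2 -0.028 and -0.032). Plxnb2, the receptor of class 4 semaphorins in epithelia, held 42.8% of the family's summed mean FPKM. It stood at 67.6, 66.9 and 64.5 FPKM in Control and 67.9, 69.4 and 68.3 FPKM in TBZ, groups that were apart by little (log2 0.05 ± 0.04 SE, edgeR adjusted p = 0.723).

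Plxnd1, a receptor best known from endothelium, had 33.8, 31.3 and 29.0 FPKM in Control and 34.5, 34.3 and 33.9 FPKM in TBZ. The TBZ libraries were just above Control replicate 1, and the log2 fold change was 0.13 ± 0.06 (SE, edgeR unadjusted p = 0.0435, adjusted p = 0.497). Plxna1, a partner of neuropilins, had 23.4, 21.7 and 17.9 FPKM in Control and 24.4, 23.7 and 23.6 FPKM in TBZ (log2 0.19 ± 0.08 SE, edgeR adjusted p = 0.526). In both genes Control replicate 3 was the lowest library, and without it the log2 fold changes were 0.08 and 0.09. Plxnb1, the receptor of Sema4d, had 18.9, 17.3 and 18.1 FPKM in Control and 17.9, 20.0 and 20.8 FPKM in TBZ, which overlapped (log2 0.11 ± 0.06 SE, edgeR adjusted p = 0.604). Plxna3, Plxna2, Plxna4 and Plxnc1 had means of 7.23, 4.19, 3.48 and 1.15 FPKM with overlapping groups, and Plxnb3 had a mean of 0.125 FPKM. Its log2 fold change of -0.59 ± 0.33 (SE, edgeR adjusted p = 0.621) was -0.30 without Control replicate 3 and -0.37 without TBZ replicate 2.

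Slit ligands were dominated by Slit3, which held 74.1% of their summed mean FPKM. Slit3 had 22.4, 21.3 and 18.3 FPKM in Control and 23.1, 23.5 and 23.3 FPKM in TBZ, a log2 fold change of 0.17 ± 0.07 (SE, edgeR unadjusted p = 0.0299, adjusted p = 0.457). The groups were apart, Control replicate 3 was again the lowest library, and without it the log2 fold change was 0.10 (edgeR adjusted p = 0.505). Slit2 had 6.65, 7.11 and 5.99 FPKM in Control and 6.79, 6.32 and 6.81 FPKM in TBZ, with no separation (log2 0.01 ± 0.06 SE, edgeR adjusted p = 0.969). Slit1 was the lowest at 1.18, 0.946 and 0.746 FPKM in Control and 1.15, 1.03 and 1.48 FPKM in TBZ. Its groups overlapped, and the log2 fold change of 0.35 ± 0.19 (SE, edgeR adjusted p = 0.599) had an interval from -0.08 to 0.77. It was 0.18 without TBZ replicate 3, 0.20 without Control replicate 3 and 0.52 without Control replicate 1.

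Robo receptors were expressed at lower levels than their main ligand. Robo1 had 7.14, 6.77 and 6.15 FPKM in Control and 6.69, 7.56 and 6.22 FPKM in TBZ, with overlapping groups (log2 0.03 ± 0.08 SE, edgeR adjusted p = 0.931). Robo2 had 3.31, 3.31 and 2.77 FPKM in Control and 3.10, 3.37 and 2.63 FPKM in TBZ (log2 -0.04 ± 0.10 SE, edgeR adjusted p = 0.924). In both genes replicate 3 was the lowest of its group, and the groups covered the same range. Robo4, the Robo of endothelial cells, had 2.73, 3.03 and 3.10 FPKM in Control and 3.42, 2.93 and 3.19 FPKM in TBZ (log2 0.11 ± 0.09 SE, edgeR adjusted p = 0.730). Robo3, known from axons crossing the midline, was at 0.0105 to 0.0448 FPKM, with 3 to 11 reads per library. Its 3′ end lies 0.6 kb from that of Robo4.

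Partner genes of these pathways gave 67 tested genes, of which 0 passed the edgeR test, 8 had an unadjusted edgeR p under 0.05 (11.9%, near the 9.61% of all tested genes) and 3 passed with DESeq2, which called 1.43% of all its genes. Of 13 tested co-receptors 7 were above 0 (median 0.04); the smallest p-values were those of Dag1, which encodes dystroglycan, a binding partner of Slits (57.5 to 61.1 FPKM in Control and 64.3 to 64.8 FPKM in TBZ, edgeR adjusted p = 0.414), and Met (log2 0.13, edgeR adjusted p = 0.554). Nrp1, which encodes neuropilin-1, was at log2 0.10 ± 0.07 (SE) and 15.5 to 19.2 FPKM over all libraries. Of 14 tested netrin and RGM genes with their receptors 7 were above 0 (median 0.01). Ntn4, a netrin of basement membranes, had 4.69, 4.69 and 3.74 FPKM in Control and 5.97, 5.85 and 6.14 FPKM in TBZ. Its groups were apart, with a log2 fold change of 0.45 ± 0.09 (SE, edgeR adjusted p = 0.124), and it passed with DESeq2 (adjusted p = 0.00286). Rgma, a ligand of neogenin, had a log2 fold change of 0.20 ± 0.05 (SE, edgeR adjusted p = 0.214).

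Among 35 intracellular transducers 22 were above 0 (median 0.04). Mical2, an actin-oxidising enzyme of a family that acts below plexins, had 5.88, 5.94 and 5.20 FPKM in Control and 7.42, 6.60 and 6.80 FPKM in TBZ (log2 0.29 ± 0.06 SE, edgeR adjusted p = 0.152). Srgap3, a GTPase-activating protein that binds Robo, had 5.44, 4.67 and 4.38 FPKM in Control and 5.67, 6.01 and 6.18 FPKM in TBZ (log2 0.30 ± 0.08 SE, edgeR adjusted p = 0.222). Both had groups apart and passed with DESeq2 (adjusted p = 0.00806 and 0.0335), as 2 of the 35. Of 5 extracellular protease genes (Adam10, Adam17, Mmp2, Mmp14 and Bmp1) 3 were above 0 (median 0.04). Adam10 was at 65.6 to 79.0 FPKM (log2 0.09, edgeR adjusted p = 0.655) and Mmp14 at 62.1 to 73.5 FPKM (log2 0.08, edgeR adjusted p = 0.709).

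Of the cell type marker lists the acinar one alone had members called by edgeR, and the part of any list in the values above was not tested. Of 9 acinar markers 6 rose in TBZ by the edgeR test (0.187% of all tested genes were called). Ctrb1, Cela2a and Rbpjl lay above 0 without passing it (adjusted p = 0.0943, 0.124 and 0.506). DESeq2 called 8 of the 9 (1.43% of all its genes). Ctrb1 and Cela2a passed there (DESeq2 adjusted p = 1.68e-06 and 0.000335) and Rbpjl did not (0.787). The median log2 fold change of the 9 was 0.56. Of 10 pancreatic epithelial markers 9 lay above 0 (median 0.21), with 0 called by edgeR and 3 by DESeq2. At an unadjusted edgeR p under 0.05 there were 6 of the 10 (60.0%, against 9.61% of all tested genes). Their summed FPKM was 1080 to 1130 in Control and 1170 to 1290 in TBZ. Neural crest, glial and neuronal markers had a median of -0.11 with 8 of 11 below 0, and 0 called by edgeR or DESeq2. At an unadjusted edgeR p under 0.05 there were 6, with 2 higher and 4 lower (54.5%, against 9.61% of all tested genes). The 11 markers had a summed FPKM of 48.0 to 64.8 in Control, the highest in replicate 3, and 54.2 to 54.8 in TBZ. Mesenchymal markers had a median of -0.01 with 6 of 12 above 0, and mesothelial markers one of -0.19 with 1 of 7 above 0. Endocrine markers had a median of 0.24 (8 of 9 above 0), macrophage markers -0.03 (2 of 8) and erythroid markers -0.11 (2 of 7). Among the endocrine markers 0 were called by edgeR and 1 by DESeq2, Neurog3 (DESeq2 adjusted p = 0.000334). Stomach and oesophagus markers had a median of -1.47 with 1 of 10 above 0. At an unadjusted edgeR p under 0.05 there were 6, with 1 higher and 5 lower (60.0%, against 9.61% of all tested genes). Of this list 0 were called by edgeR and 1 by DESeq2. That 1 was Tff2, the marker above 0 (DESeq2 adjusted p = 0.0317). The list's median log2 ratio to the control mean was -0.42, -0.745 and 1.16 in Control replicates 1 to 3. It was -1.15, -0.441 and -0.99 in TBZ replicates 1 to 3. The list shares Barx1 with the mesenchymal one. Control replicate 3 was the lowest library for 18 of the 55 tested guidance genes and the highest for 15 (32.7% and 27.3%, against 24.3% and 24.4% of all tested genes).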

How the data were processed

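Poly-A RNA of 6 libraries was sequenced in read pairs with the NEBNext Ultra kit, per the labels' protocols. STAR, HTSeq and the build mm10 are named in the submitters' processing notes; versions are not given in the sources used here. The deposited table gives whole-number read counts, and FPKM computed by the authors per gene length and library total. The authors' group means of normalized signal, log2 fold changes and p-values were deposited too. The tool is not given in the sources used here, but the log2 fold changes of the guidance genes are close to those of DESeq2.

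Counts were tested with edgeR 4.0.16 in R 4.3.3 (TMM, filterByExpr with a minimum count of 10, quasi-likelihood test, Benjamini-Hochberg adjustment over 18226 genes, threshold 0.05). The SE was derived from the size of the fold change and its F statistic, and intervals are at 95%. Groups were compared for overlap on TMM-scaled CPM. DESeq2 1.42.0, limma 3.58.1 on log2(FPKM + 0.5), other pseudocounts, RLE scaling, other filters, a replicate block and leaving out each library (the same 18226 genes) were alternatives. The edgeR fit was tested on simulated data. The table's gene spans equal GENCODE M21 for all 58 genes.

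The genes, lists and rule for naming were chosen with earlier results of these data known. The rule took, per family, the 2 highest genes and the 3 (Slits and Robos 2) with the smallest p, plus any called gene; per partner list, the 2 with the smallest p. Exons of 13 of the 58 genes overlap another gene, 5 of them by over 5% of their bases, and the labels' protocols describe no step that marks strand. Libraries of a group differed by more than sampling noise. Chi-square per degree of freedom was 9.38, 18.3 and 13.5 between Control libraries and 8.10, 6.99 and 6.43 between TBZ libraries. Over all pairs, also those between groups, it reached 22.5. The labels do not say that replicates came from separate cultures, so the spread behind each p-value is that of these samples and may be technical.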

Additional observations from a re-analysis of the deposited data

How the results depend on the processing

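No guidance gene was called with DESeq2, RLE scaling, the mean FPKM filter, limma at any of 3 pseudocounts, the replicate block or any library left out (0 in each), and 1, Sema3c, was called with no filter in edgeR. The count over all genes was 34, and it was 222 with DESeq2, 445 with no filter, 14, 13 and 4 with limma on FPKM at pseudocounts of 0.1, 0.5 and 1, 5 with the replicate block, and 5 to 34 with 1 library left out (7 without Control replicate 2, 6 without TBZ replicate 1, 5 without TBZ replicate 3). Deviations of same-numbered libraries from their group means correlated at -0.01, -0.19 and -0.08, and those of other pairs at -0.123 to 0.186. With 3 libraries per group this cannot show whether replicate numbers pair the samples. With the block the smallest adjusted p of a guidance gene was 0.365. The sign turned in 13 of 322 values of named genes, each with 1 library left out. Over the libraries left out the log2 fold change ran from -0.011 to 0.049 for Efna1, from -0.020 to 0.091 for Ephb2, from -0.126 to 0.101 for Sema5a, from -0.050 to 0.072 for Slit2, from -0.049 to 0.090 for Robo1 and from -0.125 to 0.048 for Robo2. Control replicate 3 gave the negative values of Ephb2 and Sema5a and the lowest of Slit2. The median over the guidance genes was -0.03 without it. The cause was not tested. Epha6, Epha10 and Robo3 had too few counts to be tested. The intervals of Epha5, Plxnb3, Sema4f and Slit1 reached past 1.5-fold, and the part of depth in their width was not tested.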
